A study of Mus musculus with 7 samples.

Results

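The transcriptome of the uninjured mouse heart was described from the 4 sham-operated animals of a series of 7 samples, chosen by their treatment label. The animals were male C57BL/6J mice of wild-type genotype, delivered at 8 weeks of age. They went through the surgery for a myocardial infarction model without ligation of the left coronary artery, and each mouse gave 1 library of total RNA from myocardial tissue. Infarcted hearts were taken 4 days after ligation, and no separate day is given for the sham hearts. The other 3 samples, from infarcted hearts, were not used. The values were FPKM, the fragments of a gene divided by its length and by the depth of the library, and the 4 hearts are called sham 1 to sham 4 by the number in their label, which carries no order. Depth was 22430486, 21689401, 23473543 and 19977713 fragments, and of 56980 genes between 22496 and 23163 had a value above 0 in each heart. There is only 1 group, so no p-value is given and differences between hearts are described by their values, with the error from counting fragments alone given for the spread over all genes. The SD over hearts holds the difference between animals together with that of tissue sampling and library making.

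The heart is made mostly, by volume, of cardiomyocytes, which contract through sarcomeres of myosin, actin, troponin and titin and release calcium from the sarcoplasmic reticulum at every beat. They draw nearly all of their energy from oxidation in mitochondria, mainly of fatty acids, and are packed with mitochondria. Endothelial cells, fibroblasts, pericytes and resident macrophages lie between them in large numbers. In bulk tissue, fewer cells of a type and less RNA per cell cannot be told apart.

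The labelled tissue was checked against its defining genes. All 16 cardiomyocyte genes of a fixed list were at 1 FPKM or more in every heart, with a median of 887 FPKM, which lay at the 99.7th percentile of the 9374 protein-coding genes with a mean of 1 FPKM or more. The median of those 9374 genes was 4.00 FPKM. The ventricular light chains Myl2 and Myl3 stood at 1080.3 and 1506 FPKM, while the atrial light chains Myl7 and Myl4 stood at 0.525 and 0.217 FPKM and the atrial factor Bmp10 was listed at 0 in every heart. The lists overlapped in level, since the atrial list also held Nppa (123 FPKM) and Kcnj3 (2.59 FPKM) and the ventricular list Irx4 (12.3 FPKM) and Hey2 (0.782 FPKM). Xist, expressed from the inactive X of females, reached at most 0.00895 FPKM, and the Y-linked Eif2s3y and Ddx3y stood at 9.33 and 7.79 FPKM, as in male tissue. The lists of fast skeletal muscle, lung epithelium, thymocytes and white adipocytes had no member with a mean above 0.379 FPKM, and Myh4, Sftpc, Rag1, Rag2, Lep and Retn were listed at 0 in all 4 hearts.

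A part of the most abundant entries were pseudogenes whose sequence is that of an expressed gene, and they are shown first because they set how the levels below can be read. Of 982 pseudogenes at a mean of 1 FPKM or more, 612 (62.3%) shared at least 50% of their 50-base words with an annotated gene, 16 shared none, and 401 had a higher FPKM than the gene they matched. These 612 copies held 25.9% ± 0.914 (SD, n = 4) of the summed FPKM of nuclear genes but only 4.59% ± 0.172 (SD, n = 4) of the nuclear fragments, which are not divided by length. Gapdh, the glycolytic enzyme used as a loading control in many laboratories, was at 6.23, 6.13, 7.23 and 6.76 FPKM, while its processed copy Gm12070 was at 960.0, 874, 925 and 902 FPKM. The 999 coding bases of Gapdh aligned to Gm12070 with 1 mismatch (99.9% identical), the substitution G361A (the gene's base comes before the position, which is counted from the A of the start codon), and 13 copies of Gapdh held 97.3% of the fragments of gene and copies together. Printed below are coding bases 286 to 435 of both, with the mismatch in capitals, for Gapdh at chr6:125161715-125166467 (minus strand) and Gm12070 at chr11:26786633-26787634 (plus strand) on GRCm38.
Gapdh: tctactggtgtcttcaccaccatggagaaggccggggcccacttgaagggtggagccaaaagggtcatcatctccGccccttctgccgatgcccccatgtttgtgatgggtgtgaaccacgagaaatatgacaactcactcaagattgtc
Gm12070: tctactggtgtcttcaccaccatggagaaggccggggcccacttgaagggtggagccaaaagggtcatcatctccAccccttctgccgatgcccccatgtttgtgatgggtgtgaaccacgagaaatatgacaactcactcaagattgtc

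The same was seen for genes of the respiratory chain. Cox7c, a small subunit of cytochrome oxidase, was at 15.3, 16.3, 12.9 and 12.4 FPKM, whereas its copy Gm12338 was at 1289, 1269.6, 1177 and 1151 FPKM in the same hearts. The 189 coding bases aligned without a mismatch, so sequence alone does not tell the pair apart over that stretch. The first 150 coding bases, shown without capitals because nothing differs, are given for Cox7c at chr13:86044816-86046904 (minus strand) and Gm12338 at chr11:75599763-75599954 (minus strand).
Cox7c: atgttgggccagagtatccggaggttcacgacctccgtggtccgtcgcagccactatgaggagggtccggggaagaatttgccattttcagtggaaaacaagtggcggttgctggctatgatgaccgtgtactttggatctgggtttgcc
Gm12338: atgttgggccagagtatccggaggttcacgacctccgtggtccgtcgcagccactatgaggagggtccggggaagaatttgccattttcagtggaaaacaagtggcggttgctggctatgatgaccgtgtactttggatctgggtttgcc

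The nuclear entry of highest mean FPKM, Gm29216, is a stretch of mitochondrial DNA in chromosome 1 that matches mt-Co1, the catalytic subunit of cytochrome oxidase. Over 480 aligned bases it carried 1 mismatch, A1066T by the coding position of mt-Co1, which is in capitals below in coding bases 1063 to 1212 of mt-Co1 at chrM:5328-6872 (plus strand) and Gm29216 at chr1:24615706-24616197 (minus strand). Its level was 5047 and 4894 FPKM in sham 1 and sham 3 but 9306 and 8837 FPKM in sham 2 and sham 4, while mt-Co1 itself stayed between 63145 and 65094 FPKM. The hearts therefore fell into a lower and a higher pair for this entry and not for its mitochondrial counterpart.
mt-Co1: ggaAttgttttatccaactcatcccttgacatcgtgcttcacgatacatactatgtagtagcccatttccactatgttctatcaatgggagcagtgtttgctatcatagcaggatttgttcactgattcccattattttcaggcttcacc
Gm29216: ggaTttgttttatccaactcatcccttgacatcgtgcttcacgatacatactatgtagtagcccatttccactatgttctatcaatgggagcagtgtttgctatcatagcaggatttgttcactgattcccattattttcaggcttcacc

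Other genes with most of their fragments on copies were Ppia (97.8%, level 0.577 FPKM against 292 FPKM on Gm10123), Hadhb of beta oxidation (83.9%), Hnrnpa3 (78.0%), Atp5g1 (58.0%) and Atp5h (56.8%) of ATP synthase. In all, 417 nuclear genes had such a copy and 120 had more than 50% of their joint fragments on copies, and levels of these genes are uncertain. Which of the pair the RNA came from was not tested. Of the genes described below, Fabp3 had 14.4% of its joint fragments on copies.

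Mitochondrially encoded genes took 56.6%, 55.7%, 56.6% and 57.1% of the summed FPKM, a mean of 56.5% ± 0.594 (SD, n = 4). The 4 hearts were within 2 percentage points of each other. By fragments, without division by length, the share was 27.1% ± 0.421 (SD, n = 4). mt-Co1 led at 65081, 63145, 64860 and 65094 FPKM, followed by its partners in the oxidase core mt-Co3 (31146 FPKM) and mt-Co2 (27639 FPKM), cytochrome b (mt-Cytb, 25790.1 FPKM) and the ATP synthase subunit mt-Atp8 (25769 FPKM). The complex I subunits ran from mt-Nd1 at 18683 down to mt-Nd3 at 4714 FPKM. The exception was mt-Nd6, the only protein-coding gene on the other strand of the mitochondrial genome, at 625, 638, 1350.4 and 1140.3 FPKM: it was at the lower level in sham 1 and sham 2 and at the higher level in sham 3 and sham 4, 2.16-fold from lowest to highest. The strand setting of the counting is not given in the sources used here.

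Among nuclear genes, a small number of entries held much of the summed FPKM. The 10 nuclear entries of highest FPKM took 17.9% ± 1.24 (SD, n = 4) of the nuclear sum, the top 100 took 41.0% ± 0.938 (SD, n = 4), and 204 entries made up 50% of it. Without the 7 copies of mitochondrial genes, the share of the top 10 was 12.9% ± 0.403 (SD, n = 4). By fragments, the 10 entries of highest FPKM, copies included, held 8.75% ± 0.409 of the nuclear total, and the 10 genes of most fragments held 11.9% ± 0.241 (SD, n = 4). Of the 20 highest entries, 11 were protein-coding and 9 were pseudogenes. Actc1, the cardiac alpha-actin of the thin filament, was at 7013, 5867, 5741 and 6044 FPKM, with sham 1 above the other three. Myh6, the fast alpha-myosin heavy chain of the adult mouse ventricle, was at 3796, 4086, 4000 and 4083 FPKM, a mean of 3991 ± 136 (SD, n = 4), and had the most fragments of any nuclear gene (2496642 over the 4 hearts).

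Fabp3, which carries fatty acids through the cytosol, followed with 2926, 2934, 2631 and 3105 FPKM. Mb, the oxygen store myoglobin, was at 1470.4, 2049, 1341 and 2039 FPKM. Its hearts fell into the same pairs as Gm29216, lower in sham 1 and sham 3 and higher in sham 2 and sham 4, with a 1.53-fold range; 31.9% of its annotated exon bases overlap another gene. Slc25a4, which exchanges ADP and ATP across the inner mitochondrial membrane (1600.5 FPKM), Myl3 (1506), the calcium pump Atp2a2 (1474), the titin cap Tcap (1469.9), the oxidase subunit Cox6a2 (1398), mitochondrial creatine kinase Ckmt2 (1328) and Myl2 (1080.3) completed the protein-coding top group. In all 7 of these the highest heart was less than 25% above the lowest. Ranked by fragments, the leaders after Myh6 were Atp2a2 (1215783), Actc1 (873853), tropomyosin Tpm1 (515911) and Mb (496925), and Ttn, whose transcript is very long, had 346065 fragments at 29.3 FPKM.

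**Figure D1:**
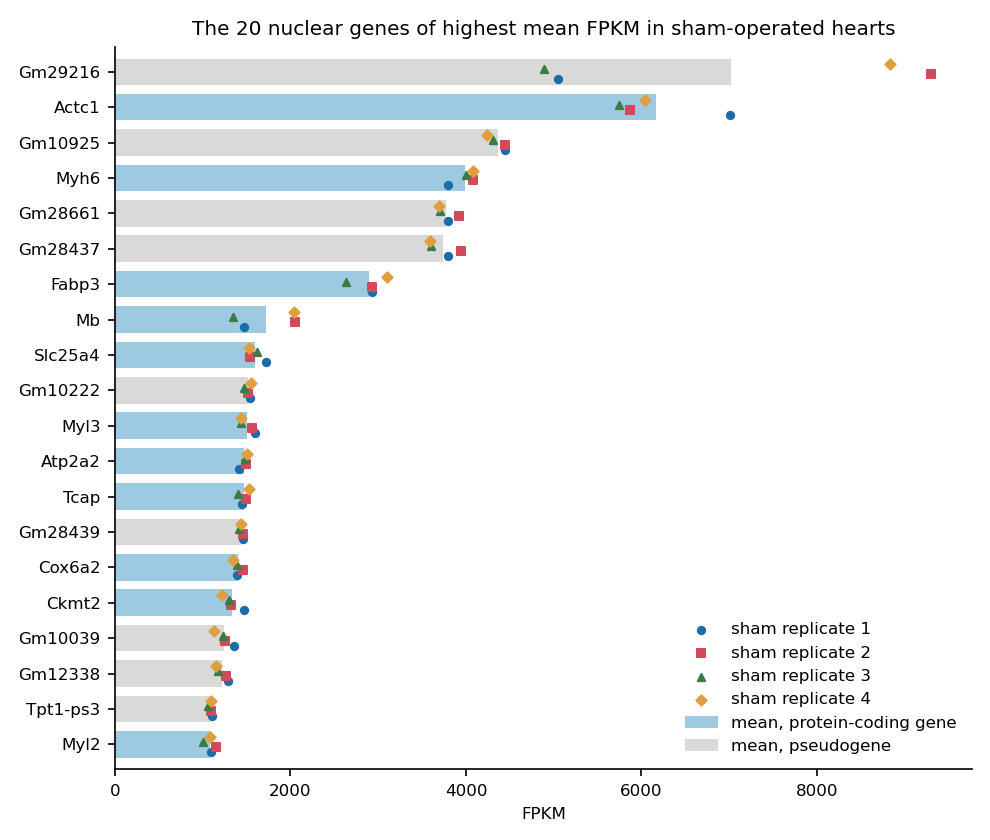
The 20 nuclear entries of highest mean FPKM. The x axis is FPKM on a linear scale from 0, bars are means over 4 sham hearts (blue for protein-coding genes, grey for pseudogenes) and each marker is 1 heart. Markers lie close together for most entries, but for Gm29216 sham 1 and sham 3 lie at 5047 and 4894 and sham 2 and sham 4 at 9306 and 8837 FPKM, and Mb shows the same pairs.

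The cell types of the heart could be ranked by their marker genes, as levels and not as cell numbers. After cardiomyocytes (median 887 FPKM) and the red cell list (24.9 FPKM, 91.1th percentile), which is described with the globins, the endothelial list had a median of 17.03 FPKM (86.9th percentile) with all 14 members at 1 FPKM or more in every heart, the fibroblast list 14.8 FPKM (84.7th percentile, 12 of 12), the pericyte list 9.99 FPKM (77.7th percentile, 8 of 8), the smooth muscle list 5.98 FPKM (64.0th percentile, 5 of 7) and the macrophage list 5.24 FPKM (59.5th percentile, 11 of 13). By summed FPKM, which also depends on the number of genes in a list, the order differed, with fibroblast genes at 418, endothelial at 304, macrophage at 263, pericyte at 231 and smooth muscle at 122 FPKM. Of endothelial genes, the fatty acid chaperone Fabp4 (71.3 FPKM) and VE-cadherin Cdh5 (62.9 FPKM) were highest, and Vwf, richer in large vessels and endocardium, was lowest at 3.00 FPKM. Gsn led the fibroblast list at 242 FPKM, a gene that muscle also expresses, and the matrix genes Dcn (43.9), Dpt (37.2), Col3a1 (30.01), Lum (20.2) and Col1a1 (19.5 FPKM) followed. Rgs5 of pericytes was at 136 FPKM, and Abcc9 and Kcnj8, the subunits of the vascular ATP-sensitive potassium channel, at 45.1 and 10.1 FPKM.

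Most macrophage genes were above 1 FPKM, and monocyte and neutrophil genes were below it. Lyz2 was at 111 FPKM and the complement genes C1qa, C1qb and C1qc at 48.8, 46.3 and 21.1 FPKM. The markers of resident macrophages Cd163 (3.95), Folr2 (2.82) and Timd4 (1.24 FPKM) were measurable but Cx3cr1, also found on them, was at 0.323 FPKM, while the monocyte receptor Ccr2 (0.107 FPKM) and the neutrophil genes S100a8 (0.0733) and S100a9 (0.316 FPKM) were not above 1 FPKM in any heart and Retnlg was listed at 0. Lymphocyte genes were low too: the median of the T cell list was 0.0543 FPKM with no member at 1 FPKM in all hearts, and that of the B cell list 0.335 FPKM, where only Ighm (2.77 FPKM) passed in every heart. Mast cell, Schwann cell and mesothelial lists had medians of 0.627, 0.221 and 0.561 FPKM, and the neuronal list 0.0137 FPKM with Chat at 0. Of the neuronal list, Uchl1 was highest at 2.75 FPKM, and Dbh, which makes noradrenaline, was at 0.640 FPKM.

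The brown adipocyte and atrial lists held genes that cardiomyocytes share. Cox8b and Cidea put the brown adipocyte list at a summed 396 to 598 FPKM, while its defining gene Ucp1 reached at most 0.0273 FPKM. Nppa, listed with atrial genes, was at 123 FPKM while the other atrial genes were low: Kcnj3 stood at 2.59 FPKM and Sln at 0.0242 FPKM. Of the conduction system, Hcn4 (1.95), Cacna1g (1.56) and Tbx3 (1.02 FPKM) were present at low level and Isl1 was listed at 0.

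**Figure D2:**
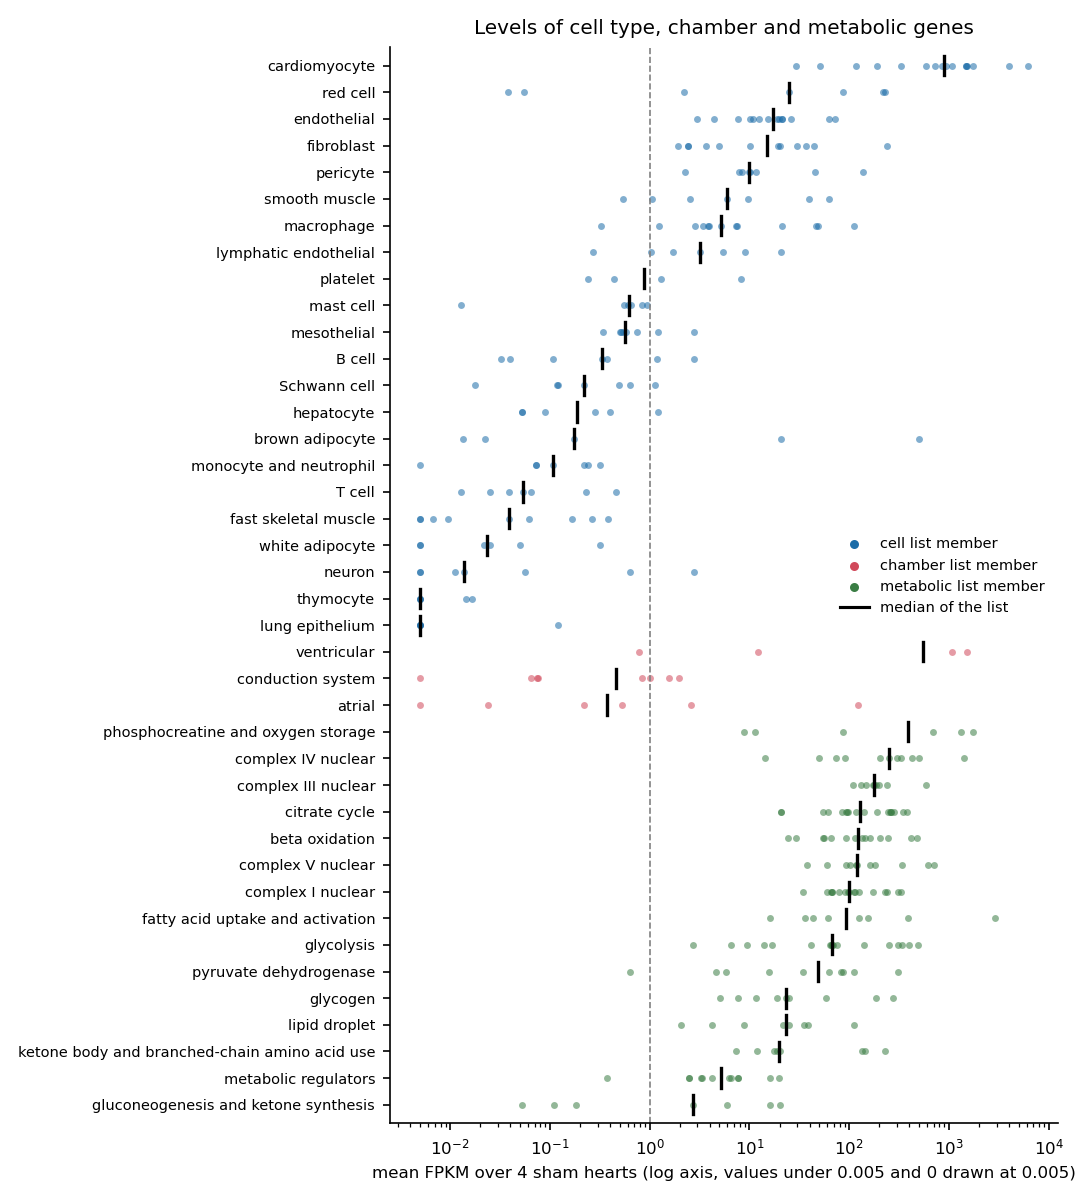
Levels of cell type, chamber and metabolic genes. The x axis is the mean FPKM over 4 sham hearts on a log axis, each point is 1 gene of the list named at the left, the black bar is the median of the list and the dashed line is 1 FPKM; values at or near 0 are drawn at the left edge. The medians of the cardiomyocyte, ventricular and respiratory chain lists lie near or above 100 FPKM, those of the endothelial, fibroblast, pericyte, smooth muscle, macrophage and lymphatic lists between 3 and 17.03 FPKM, and those of the lymphocyte, monocyte and neutrophil lists under 1 FPKM, with members spread widely around them.

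By median level, most lists of mitochondrial oxidation stood above glycolysis. The lists of nuclear subunits had medians of 247 FPKM for complex IV, 176 for complex III, 121 for complex V and 99.9 for complex I. The citrate cycle had 129 FPKM, beta oxidation 124, fatty acid uptake and activation 93.7, glycolysis 67.7 and the pyruvate dehydrogenase list 48.6 FPKM, and all 8 lists from complex IV to glycolysis lay at or above the 96.7th percentile. The list of ketone body and branched-chain amino acid use was lower, at a median of 19.6 FPKM. By summed FPKM, which also depends on the number of genes in a list, fatty acid uptake and activation (3722), complex IV (3638), the citrate cycle (3010) and complex V (2534) were above glycolysis (2356), and complex I (2295), beta oxidation (2204) and complex III (1958) were below it. Members with over 10% of joint fragments on copies numbered 3 in the glycolysis list and 2 in complex V. Complex IV, the citrate cycle, beta oxidation and fatty acid uptake and activation each had 1, so the order of close sums is uncertain. Of the 18 citrate cycle genes, Dlst had the lowest mean, at 20.5 FPKM. Of beta oxidation, the long-chain dehydrogenase Acadl (473 FPKM) and the thiolase Acaa2 (412 FPKM) led; Hadhb was lowest at 24.5 FPKM, with most of its joint fragments on a copy as stated above. Lpl, which frees fatty acids from lipoproteins at the capillary wall, was at 387 FPKM, the fatty acid transporter Cd36 at 126 FPKM and Cpt1b, the gate of mitochondrial entry, at 154 FPKM.

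Glycolytic levels were uneven. Pgam2 (493 FPKM), Ldhb (394), Eno3 (337), Aldoa (308) and Pfkm (248 FPKM) were as high as citrate cycle genes, whereas Hk1 (14.1), Eno1 (9.52) and the basal glucose transporter Slc2a1 (2.72 FPKM) were low. Among ketone and amino acid genes, Oxct1, the enzyme by which heart uses ketone bodies, was at 219, 202, 305 and 193 FPKM, with sham 3 above the rest. Genes of glucose output by the liver were near 0: the glucose-6-phosphatase gene G6pc was at 0.0526 FPKM and Pck1, which commits carbon to glucose, at 0.181 FPKM. The muscle fructose bisphosphatase Fbp2 stood at 20.02 FPKM. The transcriptional regulators of all these pathways were modest in level, with a list median of 5.19 FPKM: Esrra was at 19.74, Ppargc1a at 16.1, Ppara at 6.49 and Nrf1 at 0.370 FPKM.

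Within gene families, a single member usually dominated. In each of 54 families (196 genes), every member was taken as a percent of the family's summed FPKM within each heart. The leading member held at least 95% in 22 families, at least 90% in 25 and at least 50% in 51, with a median leading share of 88.7%. Shares were steady between hearts: the median SD was 0.659 percentage points and the largest 8.98. In 46 families the member listed as the cardiac form led in all 4 hearts, in 7 it led in none, and in 1, the natriuretic peptides, it led in 3 of 4. Leaders and other members shared almost no 50-base words, with 135 of 142 pairs sharing none and 1 pair sharing over 5%. That pair was Myh6 and Myh7, where 20.2% of the words of Myh6 occur in Myh7.

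Sarcomere families were led by a single member with over 90%. Myh6 held 97.2% ± 0.176 (SD, n = 4) of myosin heavy chain FPKM, and Myh7, the slow form of the fetal mouse ventricle, held 2.29% ± 0.158 at 92.3, 104, 90.2 and 89.4 FPKM. Tnni3, Tnnc1, Myl2, Myl3, Tnnt2 and Mybpc3 each held over 99% of their family, and the fetal troponin I gene Tnni1 was at 0.0240 FPKM. Calcium handling was also one-sided, apart from calmodulin kinase II (below), with Atp2a2 at 99.8%, Ryr2 at 99.8%, Pln at 99.7% and Casq2 at 97.9%. Actin was looser. Actc1 held 94.4% ± 1.74 (SD, n = 4) and the skeletal alpha-actin Acta1 3.66% ± 1.68, and Acta1 was the member that differed between hearts, as described below.

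Channels and receptors were shared out more evenly. Cacna1c held 70.5% ± 0.905 of calcium channel FPKM (SD, n = 4). No voltage-gated potassium channel held a majority: Kcnh2 had 29.5% ± 0.835, Kcna5 28.9% ± 0.769, Kcnq1 20.6% ± 0.357 and Kcnd2, listed as the cardiac form, 13.2% ± 0.312, and the shares of Kcnh2 and Kcna5 lay within 1 SD of each other. Of inward rectifiers, Kcnj11, the pore of the ATP-sensitive channel of cardiomyocytes, had 46.3% and Kcnj2, which carries the resting current, 12.7%. Adrb1 held 70.9% ± 1.92 of beta-adrenergic receptor FPKM, while Adrb3 was at 0.00629 FPKM. Chrm2 held 99.3% of muscarinic receptor FPKM.

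The listed muscle and heart forms led most enzymes of metabolism, apart from creatine kinase and pyruvate dehydrogenase kinase (below). Cox6a2 held 96.1% ± 0.342, Cox8b 86.9% ± 1.81 and Cox7a1 76.8% ± 1.87 of their subunit pairs. Ldhb, the form of oxidative tissue, held 84.1% ± 1.91 of lactate dehydrogenase against 14.6% for Ldha, and Slc2a4, the insulin-responsive transporter, held 89.8% ± 0.514 of glucose transporter FPKM. Cpt1b held 95.6% ± 0.218, and the liver form Cpt1a 4.05% ± 0.234. Glycogen phosphorylase was shared between Pygm of muscle (59.3% ± 0.666) and Pygb, named for the brain (40.6% ± 0.658), with the liver form Pygl at 0.132%. Hexokinase was mostly Hk2 (75.8% ± 3.08), with Hk1 at 16.1%.

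The potassium channel families were 2 of the 7 that the listed cardiac form led in no heart. In the others, Camk2g had 48.5% ± 6.51 and Camk2d 23.9% ± 2.48 of calmodulin kinase II FPKM, Ckmt2 65.4% ± 1.77 and Ckm 34.1% ± 1.78 of creatine kinase, Pdk2 58.6% ± 5.81 and Pdk4 32.7% ± 7.07 of pyruvate dehydrogenase kinase, and Npr2 57.5% ± 1.35 and Npr1 36.1% ± 2.11 of natriuretic peptide receptors (SD, n = 4). By fragments, without division by length, Camk2d (54.4%) and Ckm (53.6%) led their families and Vegfa (56.4%) overtook Vegfb, so these orders depend on the lengths used. Mef2d had 76.4% ± 7.70 of MEF2 FPKM, against 21.3% ± 8.15 for Mef2a. Mef2a was at 2.77 and 2.97 FPKM in sham 1 and sham 4 but at 6.57 and 6.77 FPKM in sham 2 and sham 3, so its share changed with the heart.

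**Figure D3:**
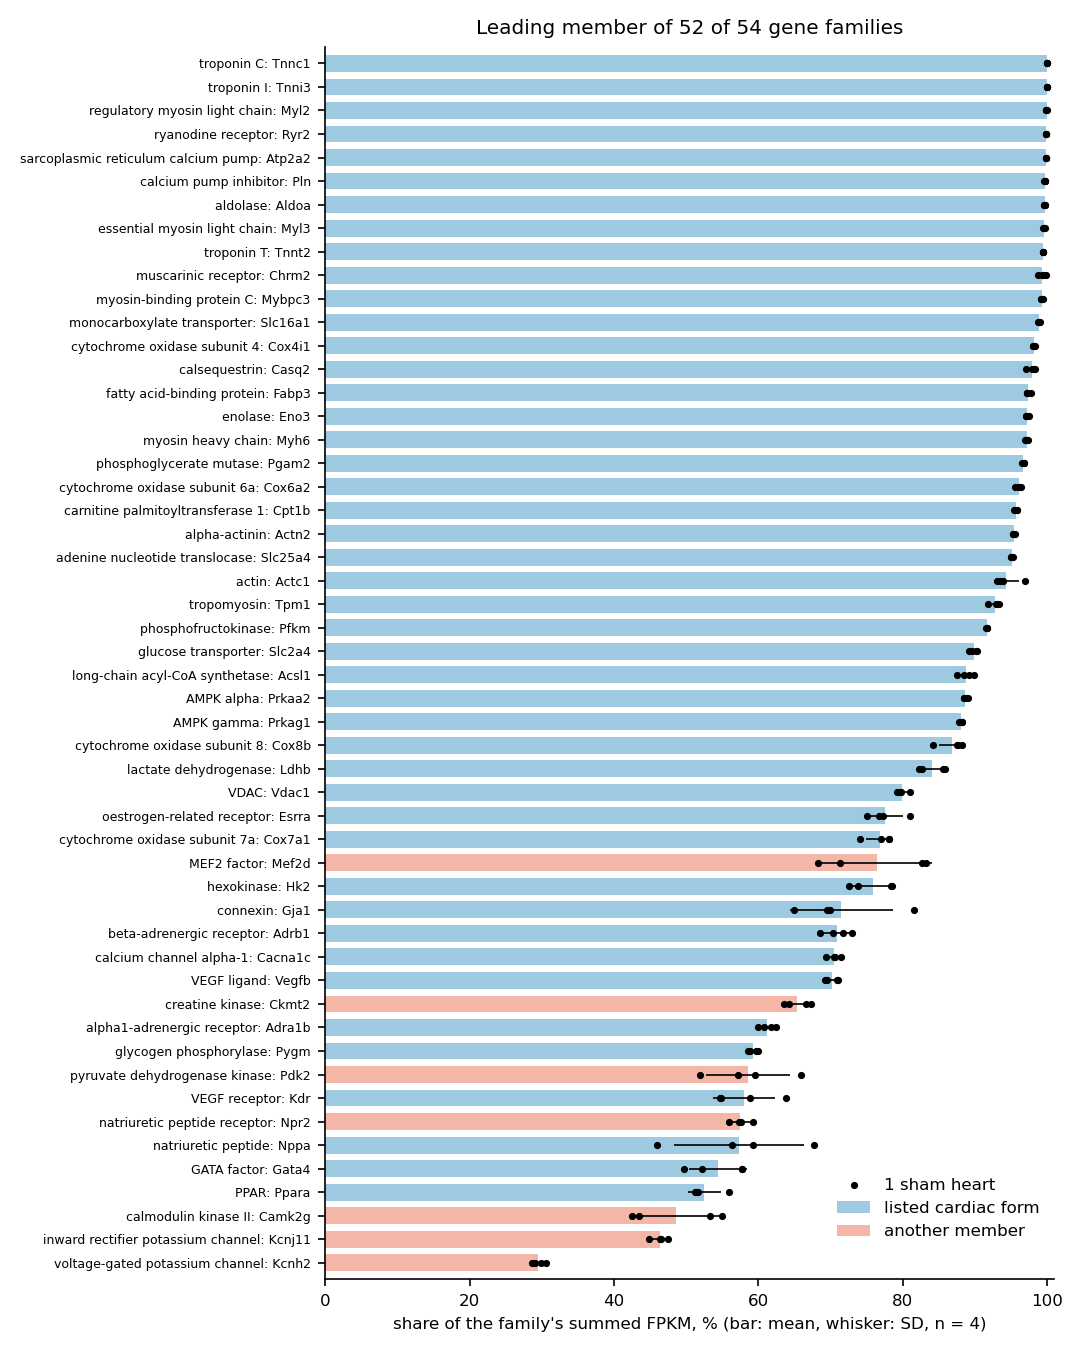
Share of the leading member in 52 of the 54 gene families. The x axis is the percent of the family's summed FPKM, bars are means over 4 sham hearts, whiskers are SD (n = 4) and points are hearts; blue bars are led by the listed cardiac form and red bars by another member. Sarcomere families lie above 90%, and the points of most families are hardly separated, with wider spreads for the MEF2 factor, connexin, natriuretic peptide and calmodulin kinase II families.

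Most genes differed little between the 4 hearts. Of 10523 genes with a mean of 1 FPKM or more and at least 100 fragments in all, 67.8% had a highest heart less than 25% above the lowest, and the median ratio was 1.18-fold. The median SD of log2(FPKM + 1) was 0.08, against 0.05 from counting alone. In 287 genes, or 2.73%, the highest heart was at least 2 times the lowest, and in 81 at least 3 times. The count was 124 with 1 FPKM added to each value and 4202 of 19526 without the filter. Without sham 1 the count was 182 of 10410 and without sham 4 it was 164 of 10456. Leaving out a heart cannot raise the ratio of a gene, so a fall in the count is built into this comparison. Of the 287, 277 had an SD of at least 2 times their counting SD. Variable genes were 3.11% of those between 1 and 10 FPKM, 1.57% of those between 10 and 100 FPKM and 1.35% (4 of 296) of those from 100 FPKM. The heart at the top was sham 1 for 89 genes, sham 2 for 58, sham 3 for 71 and sham 4 for 69, and the heart at the bottom was sham 4 for 95, so no heart stood apart for all of them.

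**Figure D4:**
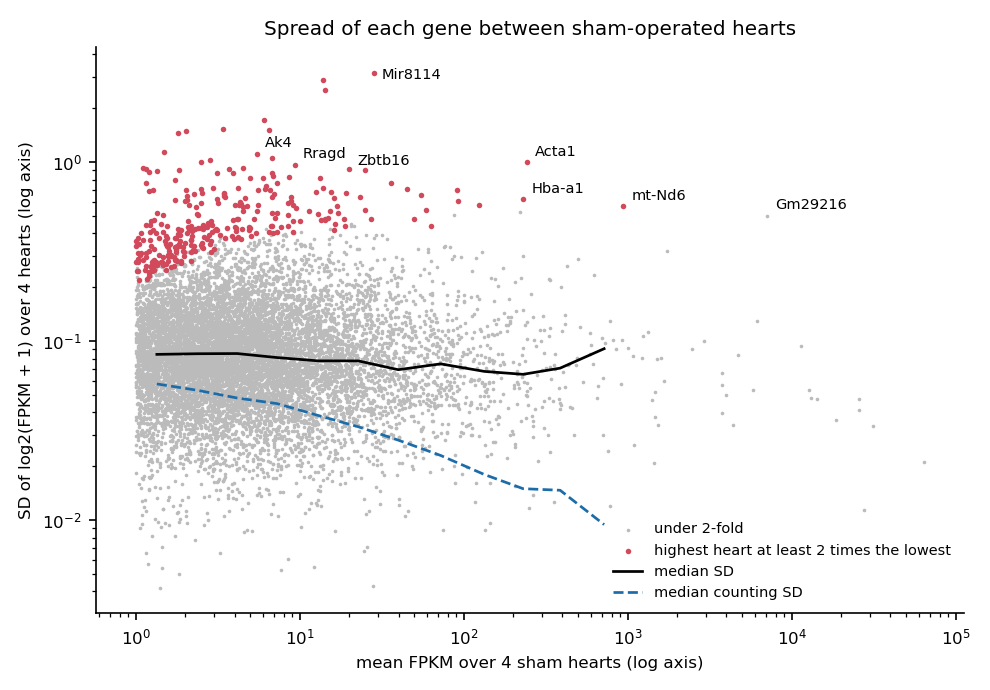
Spread of each gene between sham hearts. The x axis is mean FPKM (log axis), the y axis the SD of log2(FPKM + 1) over 4 hearts (log axis), each point is 1 of 10523 genes and red points are the 287 genes at least 2-fold apart. The median SD (black) stays nearly level across abundance while the median counting SD (blue, dashed) falls, and Acta1, Hba-a1 and mt-Nd6 are among the few genes of high abundance that lie far above the median.

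**Figure D5:**
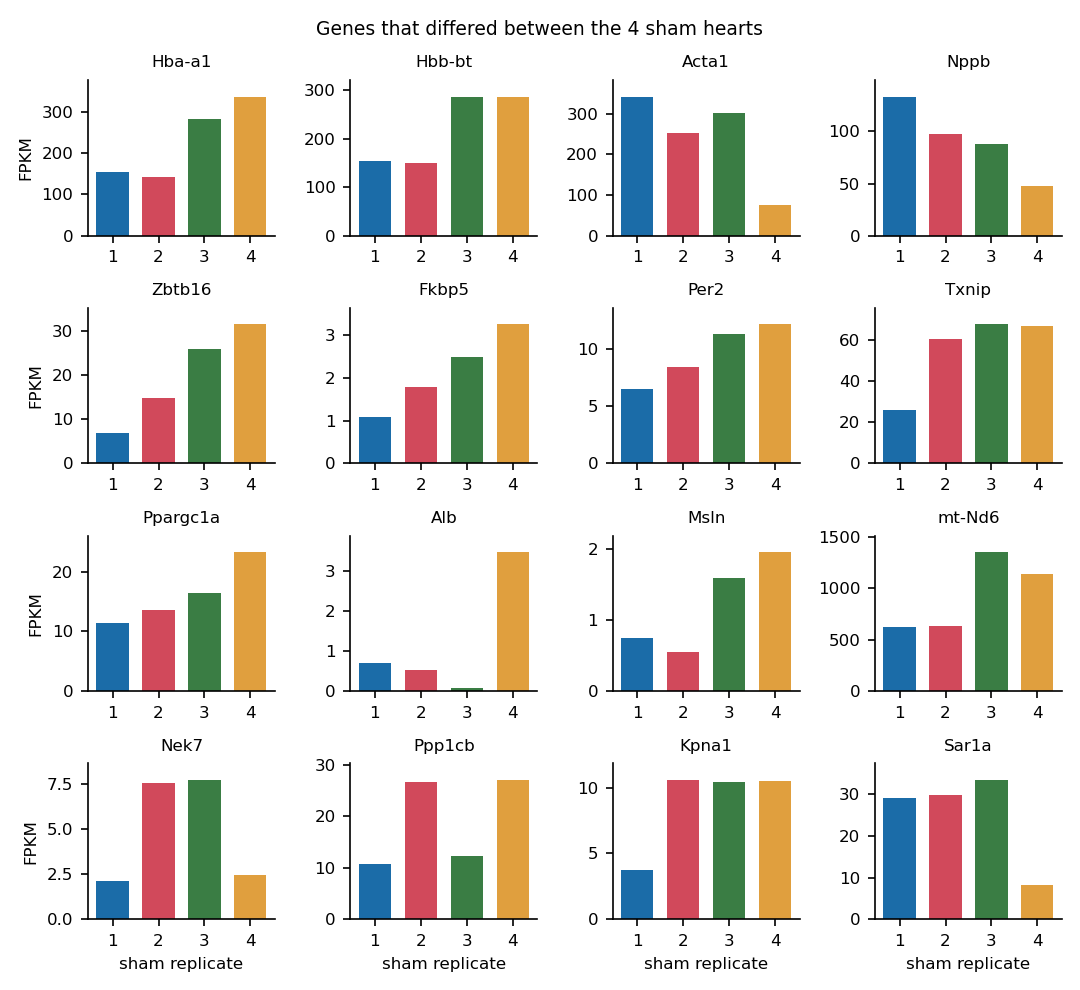
FPKM of 16 genes in each of the 4 sham hearts, 1 bar per heart, with each y axis starting at 0. The globin genes and mt-Nd6 are higher in sham 3 and sham 4, Acta1 is low in sham 4, and Nek7, Ppp1cb, Kpna1 and Sar1a each take either a lower or a higher level.

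Of the 20 genes with the largest SD beyond counting, 11 shared at least 50% of their exon bases with another gene, as did 2.52% of all tested genes with annotation and 13.8% of the variable ones. Mir8114 was at 0.402, 112, 0.384 and 0.451 FPKM, high in sham 2 alone, and Gm45717 was at 0, 0.0931, 55.3 and 0 FPKM, high in sham 3 alone; both lie wholly within exons of other genes. Gm49320, Gm20716, Gm20431, Gm49369 and Pet117 were also overlapped over their whole exon length, and their values are uncertain. Chtf8 was listed under a pair of overlapping identifiers with opposite patterns, at 0.245, 1.09, 11.5 and 11.2 FPKM in one and 6.53, 5.49, 1.44 and 1.26 FPKM in the other. Over all 10415 tested genes with annotation, 14.1% shared at least 10% of their exon bases with another gene, and over the 276 variable ones with annotation the share was 22.8%. Exon overlap thus was more frequent among the variable genes, and its part in their spread was not tested.

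Genes of that group without such overlap included Ak4, a mitochondrial adenylate kinase, at 6.45, 6.595, 0.728 and 8.15 FPKM, lower in sham 3 alone. Rragd, a GTPase of the amino acid sensing path to mTORC1, was at 5.64, 4.59, 22.0 and 5.00 FPKM, higher in sham 3 alone. Hnrnpa3 was at 1.58, 2.80, 6.59 and 0.392 FPKM, with 78.0% of its joint fragments on copies.

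A recurring pattern was noticed after the values were seen: genes whose 4 values took a lower and a higher level with little spread within each. With hearts of a level within 25% of each other and the levels at least 2-fold apart, 84 of the 287 genes (29.3%) met it, 77 of them protein-coding, with a median of 2780 fragments and a median ratio between levels of 2.47. Nek7, a kinase of mitosis and of the inflammasome, was at 2.11, 7.57, 7.74 and 2.46 FPKM. Ppp1cb, a catalytic subunit of protein phosphatase 1, was at 10.8, 26.6, 12.3 and 27.0 FPKM. Kpna1, a nuclear import receptor, was at 3.73, 10.6, 10.4 and 10.5 FPKM, and Sar1a, a GTPase of vesicle budding, at 29.0, 29.9, 33.4 and 8.15 FPKM. The hearts at the higher level thus differed from gene to gene.

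All 14 possible splits of 4 hearts into a higher and a lower set occurred. The most frequent, with sham 1, sham 2 and sham 3 at the higher level, had 18 genes, 47 genes had 3 hearts at the higher level, 25 had 2 and 12 had 1. Other genes of the kind were Csdc2 (2.95, 8.14, 8.17 and 2.96 FPKM), the transcription factor Mef2a, the ezrin relative Rdx (7.99, 17.9, 18.1 and 17.1 FPKM), the cap-binding factor Eif4e (16.96, 15.1, 18.0 and 5.605 FPKM) and the autophagy gene Map1lc3b (6.80, 6.85, 16.2 and 6.52 FPKM, with 34.0% of joint fragments on a copy). Of the 81 with annotation, 22.2% overlapped another gene by at least 10% of exon bases, close to the 22.8% of all variable genes. The lengths behind their values were a median of 1.59 times the exon length of the reference annotation, against 1.41 times for all variable and 1.31 times for all tested genes, and neither the lengths nor the counting method was tested as a source of the levels.

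Of 7 tested members of the heart stress list, which holds genes of load and stretch, 4 were 2-fold apart, where 2.73% of all tested genes were; the list was chosen with earlier results known, and the difference was not tested. Acta1, the fetal and skeletal actin, was at 342, 252, 301 and 74.4 FPKM, a 4.59-fold range set by sham 4 alone. Nppb, which encodes B-type natriuretic peptide, was at 133, 97.2, 88.1 and 47.9 FPKM, and Nppa, which encodes atrial natriuretic peptide, at 113, 125, 185 and 69.7 FPKM. Sham 4 was the lowest heart for all 3 of them, but the highest differed, being sham 1 for Acta1 and Nppb and sham 3 for Nppa; 61.5% of the annotated exon bases of Nppa overlap another gene. Xirp2, a protein of the intercalated disc, took 2 levels with sham 2 (10.3) and sham 4 (8.74) above sham 1 (3.77) and sham 3 (3.42 FPKM). Myh7, Ankrd1 and Ccn2 were under 2-fold, with Ankrd1 at 64.8, 58.1, 71.6 and 53.3 FPKM. Gja1, the main connexin of ventricular gap junctions, was at 43.0 FPKM in sham 1 and between 19.9 and 23.0 FPKM in the others.

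Globin genes varied together and separated the hearts into pairs. Hba-a1 was at 154, 142, 284 and 337 FPKM and Hba-a2 at 17.8, 15.9, 31.9 and 34.1 FPKM, 2.38-fold and 2.15-fold from lowest to highest. Hbb-bt was at 154, 151, 287 and 286 FPKM and Hbb-bs at 61.4, 60.5, 112 and 114 FPKM, just under 2-fold. In each of these 4 genes sham 1 and sham 2 were low and sham 3 and sham 4 high, with no overlap between the pairs. Alas2, the first enzyme of haem synthesis in red cells, followed at 1.59, 1.63, 2.56 and 3.02 FPKM. The anion exchanger gene of red cells Slc4a1 reached at most 0.0943 FPKM. Hba-a1 and Hba-a2 share 72.3% and 89.3% of their 50-base words and Hbb-bt and Hbb-bs 58.3% and 53.2%, so the division of fragments within each pair is uncertain, while the summed fragments of a pair do not depend on it. The amount of blood left in the tissue was not measured.

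The alpha globin, beta globin and Alas2 genes sit on 3 chromosomes, so the 200 bases before the start of 4 of them, from RefSeq on GRCm38.p6, are shown to let their promoters be compared. Capitals mark matches to 4 motifs on either strand, neighbouring matches running together. Of 32851 promoter windows of the same length, 45.5% held the box CACCC, 29.3% held the box CCAAT, 7.80% held the GATA motif AGATAA and 3272 windows held the TATA motif TATAAA. The windows are chr11:32283472-32283671 (plus strand) for Hba-a1, chr7:103813924-103814123 (minus strand) for Hbb-bt, chr7:103827929-103828128 (minus strand) for Hbb-bs and chrX:150547217-150547416 (plus strand) for Alas2. CACCC was matched 2 times in Hba-a1, 3 in Hbb-bt, 1 in Hbb-bs and 3 in Alas2, and CCAAT 1 time in Hba-a1, 3 in Hbb-bt and 1 in Hbb-bs. The exact letters AGATAA were matched only in Alas2 and the exact letters TATAAA only in Hbb-bt. Near forms were not searched and stay in lower case, such as tgataa in Hba-a1 and atataa in Hba-a1 and Hbb-bs. The absence of a match therefore does not mean that a promoter lacks a GATA or TATA motif. These are matches of letters and not measured sites.
Hba-a1: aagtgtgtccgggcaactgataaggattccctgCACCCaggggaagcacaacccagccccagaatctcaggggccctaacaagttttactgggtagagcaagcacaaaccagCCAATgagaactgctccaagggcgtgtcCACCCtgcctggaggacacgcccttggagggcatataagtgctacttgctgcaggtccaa
Hbb-bt: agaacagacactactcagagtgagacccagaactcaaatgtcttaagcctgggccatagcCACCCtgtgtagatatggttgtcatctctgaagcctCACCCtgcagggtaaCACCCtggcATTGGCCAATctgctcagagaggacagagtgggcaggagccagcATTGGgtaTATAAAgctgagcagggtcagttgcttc
Hbb-bs: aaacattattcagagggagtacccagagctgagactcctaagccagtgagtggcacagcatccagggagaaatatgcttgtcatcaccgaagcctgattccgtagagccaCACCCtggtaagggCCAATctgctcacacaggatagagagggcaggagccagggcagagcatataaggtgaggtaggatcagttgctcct
Alas2: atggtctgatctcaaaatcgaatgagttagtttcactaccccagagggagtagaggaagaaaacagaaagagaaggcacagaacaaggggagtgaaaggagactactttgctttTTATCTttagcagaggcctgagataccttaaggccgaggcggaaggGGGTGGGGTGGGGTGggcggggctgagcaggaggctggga

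Genes responsive to glucocorticoid and to feeding were variable in part. Zbtb16, a strongly hormone-induced transcription factor, was at 6.87, 15.0, 25.9 and 31.6 FPKM, a 4.598-fold range, and Fkbp5, a chaperone of the glucocorticoid receptor, at 1.09, 1.79, 2.49 and 3.25 FPKM. Both placed the hearts in the same order, but the other 7 of 9 tested members of the glucocorticoid list stayed under 2-fold (2.73% of all tested genes did not): Tsc22d3, for example, was at 16.7, 18.2, 17.7 and 19.5 FPKM. Txnip, a glucose-responsive gene, was at 25.7 FPKM in sham 1 and 60.5, 67.3 and 66.8 FPKM in the others. It met the pattern of a lower and a higher level, and 19.4% of its annotated exon bases overlap another gene. Pdk4, which restrains glucose oxidation in fasting, was at 58.4, 68.0, 40.4 and 84.8 FPKM, and Ppargc1a, a coactivator of mitochondrial genes, at 11.3, 13.6, 16.4 and 23.2 FPKM. The highest heart was sham 4 for Pdk4 and Ppargc1a and sham 3 for Txnip. Angptl4 and Fgf21, further genes of the fasted state, were at 0.751 FPKM and at 0.

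Of 16 tested core clock genes, 0 were 2-fold apart, which at 2.73% of all tested genes does not set the clock apart. Per2 came nearest at 6.53, 8.40, 11.3 and 12.1 FPKM. Nr1d1 was at 33.3, 30.4, 26.3 and 24.0 FPKM, Dbp at 18.4, 18.7, 19.95 and 21.1 FPKM, and the activator Arntl, below the filter, at 0.446, 0.407, 0.251 and 0.106 FPKM. The range was 1.86-fold for Per2 and 1.39-fold for Nr1d1, and the time of day of collection is not given in the sources used here. Of immediate early genes, 1 of 14 tested was 2-fold apart (2.73% over all tested genes), Fos, at 0.952, 1.19, 0.955 and 1.94 FPKM. Of 7 tested heat shock genes 2 were, beside the 2.73% of all tested genes, the near-identical Hspa1a (3.52, 3.57, 5.27 and 7.29 FPKM) and Hspa1b (7.46, 5.58, 9.57 and 15.2 FPKM), both highest in sham 4; they share 58.8% and 62.3% of their words. Of the other 5, Hspb1 was at 98.2, 91.5, 93.3 and 76.0 FPKM, lowest in sham 4.

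Some marker genes of less abundant cell types and of other tissues differed too. The mesothelial genes of the heart's outer surface, Upk3b (1.73, 1.83, 3.19 and 4.28 FPKM) and Msln (0.745, 0.556, 1.59 and 1.96 FPKM), were higher in sham 3 and sham 4, and the summed mesothelial list, to which they contribute most, was 4.58, 5.38, 7.96 and 10.9 FPKM. Krt19 and Lrrn4 showed the same pairs, but Upk1b, Krt8, Krt18 and Wt1 (0.486, 0.544, 0.481 and 0.640 FPKM) did not. Lyve1 of lymphatic vessels and some macrophages was at 6.69, 7.78, 8.04 and 13.6 FPKM, although Ccl21a, Prox1 and Flt4 were all under 2-fold. Alb, made by the liver, was at 0.713, 0.522, 0.0831 and 3.48 FPKM, and Ttr (0.338, 0.233, 0.144 and 0.886 FPKM) and Apoa1 (0.0601, 0.0622, 0 and 1.01 FPKM) had the same highest heart, sham 4. Of antigen presentation genes, H2-Ab1 (7.68, 5.59, 4.84 and 2.90 FPKM) and H2-Eb1 (8.03, 12.9, 7.21 and 5.74 FPKM) were lowest in sham 4, while Cd74, which guides the same molecules, was at 29.99, 29.3, 30.01 and 32.6 FPKM.

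Of the genes of energy supply few were 2-fold apart, a count that the 2.73% of all tested genes does not set apart. None of the 18 citrate cycle genes, 14 beta oxidation genes or 11 complex V genes was 2-fold apart. The summed complex V list was 2529, 2539.7, 2551 and 2516 FPKM. Of the pyruvate dehydrogenase list 1 of 9 was (Pdk4) and of the metabolic regulators 1 of 11 (Ppargc1a). Of complex IV, 1 of 11 was, Cox6c, at 62.6, 29.1, 51.1 and 56.6 FPKM. Among genes of 100 FPKM or more, the smallest SD was that of Acat1, the mitochondrial thiolase of ketone and isoleucine use, at 134.1, 133.5, 135.4 and 133.9 FPKM, a 1.01-fold range, with an SD on the log2 scale (0.0088) below that from counting (0.0128). Lamp1 of lysosomes (142.8, 143.3, 143.3 and 145.0 FPKM), mt-Co2, the muscle phosphofructokinase Pfkm (246.9, 249.6, 250.6 and 246.5 FPKM), Atp5f1, the lysosomal Psap, the mitochondrial pore Vdac1 and Asb2 followed, beside the pseudogenes Gm13910 and Gm4294. Of 11 tested reference genes commonly used for normalization 0 were 2-fold apart, a count that the 2.73% of all tested genes does not set apart: Hprt was at 33.1, 31.4, 32.2 and 32.1 FPKM, Eef2 at 327, 331, 337 and 339 FPKM, and Actb at 46.5, 43.3, 39.0 and 49.6 FPKM. Gapdh and Ppia, as given above, had nearly all of their joint fragments on copies.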

How the data were processed

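The authors deposited 1 table of FPKM values (fragments scaled by gene length and library depth) for 56980 genes in 7 mice. The submitters' processing notes name CASAVA 1.8, HISAT2, SAMtools 1.3.1, edgeR and build mm10. The RNA was total RNA from an RNAfast200 kit. The annotation, counting program and strand setting are not given in the sources used here. The 4 sham columns were used, the 3 columns of infarcted hearts were not, and the number of columns outside this series was 0. Groups came from the treatment labels. The labels do not say that hearts were processed together or apart.

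Gene symbols and positions were taken from GENCODE M21 on GRCm38 (mm10), which held 52125 identifiers (91.48%). Whole fragments were recovered from the FPKM values by searching gene lengths from 20 to 150000 bases, with a tolerance of at most 0.0007 fragment, for all 27131 genes above 0 in a sham heart. The lengths found equalled the annotated exon length for 36.8% of annotated genes and for detected genes were a median of 1.29 times as long, so levels per length depend on an annotation not used here. Depth was 19977713 to 23473543 fragments, and 3 fragments over the 4 hearts correspond to 0.02 FPKM for a gene of the length of Acta1. Counting errors cover counting only.

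Shares, medians, ranks and folds were computed in Python 3.11.15 (pandas 2.3.3, NumPy 2.4.6), alignments with Biopython 1.88 and plots with matplotlib 3.10.9. A gene was called variable where its highest heart was at least 2 times its lowest, at a mean of 1 FPKM and 100 fragments or more. The SD of log2 values used a pseudocount of 1 FPKM. Copies were pseudogenes at 1 FPKM or more sharing at least 50% of their 50-base words with a gene. Both scripts of recovery and spread were tested on simulated data.

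Named were the 20 highest nuclear genes, mitochondrially encoded genes, the 3 highest, the lowest and the zero members of each list, family members, the 20 most and (from 100 FPKM) the 10 least variable genes, and list members that varied 2-fold. Some genes that this rule names are not reported here. Other list members and genes are given as examples chosen after their values were seen. The members and lists were chosen with earlier results of these data known. Alternatives were TPM scaling, scaling by medians, other filters and pseudocounts, fragments, reference lengths and leaving out each heart. Nothing from infarcted hearts enters any value.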

Additional observations from a re-analysis of the deposited data

Results flagged for a closer look

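In 12 of 148 values examined over the 4 sham hearts (depth and overall shares, sums of gene lists, leading shares of families, the most abundant nuclear genes and the genes of largest spread), 1 heart lay far from the other three by Dixon's gap test. Of the 128 values not chosen for their spread, 5 were of this kind, and chance alone gives about 1 in 20, or 5%. The other 7 were among 20 genes chosen for their large spread, to which that rate does not apply. The heart set apart was sham 1 for 1 value, sham 2 for 4, sham 3 for 3 and sham 4 for 4.

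The single genes among them were Mir8114 (112 FPKM in sham 2 against at most 0.451), Gm45717 (55.3 FPKM in sham 3 against at most 0.0931), Gm49320 (7.73 FPKM in sham 2 against at most 0.156), Pet117 (7.08 FPKM in sham 4 against at most 0.0665), Gm49369 (7.01 FPKM in sham 1 against at most 1.09), Cd63-ps (0.174 FPKM in sham 2 against at least 7.89) and Rragd (22.0 FPKM in sham 3 against at most 5.64). The first 5 are overlapped by exons of other genes over their whole length, and Cd63-ps and Rragd are not overlapped.

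Of lists and shares, the summed beta oxidation list was 2143 FPKM in sham 4 against at least 2219 in the others. Fabp3 held 97.7% of fatty acid-binding protein FPKM in sham 4 against at most 97.3%. Ppara held 55.9% of PPAR FPKM in sham 4 against at most 51.6%. The summed lung epithelium list was 0.484 FPKM in sham 2, all of it Scgb1a1, against at most 0.0146 FPKM, and the summed thymocyte list was 0.124 FPKM in sham 3 and 0 in the others. The causes were not tested.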

How the results depend on the processing

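Shares depended on the unit. The mitochondrial share was 27.1% by fragments in place of 56.5%, and the share of the 10 highest nuclear genes was 8.75% by fragments, 12.9% without copies of mitochondrial genes and 15.5% without copies of any gene in place of 17.9%, the last pair chosen after seeing the data. The count of 287 variable genes was 124 with 1 FPKM added, 79 of 4620 at a mean of 5 FPKM or more, 180 of 7935 at 1000 fragments or more (chosen after seeing the data) and 4202 of 19526 without a filter, 284 of which were shared. It was 287 with TPM scaling (281 shared), 284 with median scaling (275 shared), 257 with 0.1 FPKM added and 277 when an SD of at least 2 times the counting SD was also asked. Leaving out each heart in turn gave 164 to 218 variable genes (164 without sham 4 and 182 without sham 1), 10279 to 10357 detected genes, mitochondrial shares of 56.3 to 56.8%, top shares of 17.6 to 18.4%, 46 to 47 families and 34 lists. Genes at 1 FPKM or more in all 4 hearts numbered 10185, or 10890 by the mean, 12478 at 0.5 FPKM and 12669 after TPM scaling. Families led by the cardiac form in all hearts numbered 46, and 45 by fragments, where Camk2d and Ckm led, and Ppara and Vegfb were among those that no longer led in every heart. Reference lengths and added copies gave 46 too, though reference lengths moved 32 of 54 leading shares by more than their SD. Lists with a median of 1 FPKM or more numbered 34, and 37 after TPM scaling. That scaling, which changes all genes of a heart alike, moved 49 list medians by at least their SD and left 1. The mast cell median, for example, went from 0.627 to 1.33. No paired analysis was possible because the hearts form 1 group, so no numbers are shared between groups. Depth limits genes near 1 FPKM, where counting error is largest.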
